A study of Mus musculus with 12 samples.

Results

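The 7 genes described here are regulators of adipocyte formation and early adipocyte genes: Pparg, Fabp4, Lpl, Zfp423, Ebf1, Ebf2 and Dlk1. They were taken by name from the 48709 genes of the count matrix, before any filter, and each name matched 1 row. RNA was sequenced from wild-type C57BL/6 mouse embryonic fibroblasts, cultured stromal cells of E12.5–13.5 embryos, after transfection with an siRNA against IMP2 or a control siRNA. IMP2 (gene Igf2bp2) binds mRNAs that carry N6-methyladenosine, and 24 hours after transfection the cells received interleukin-17 (IL-17, 200 ng/mL, 8 hours) or no stimulus. The groups were siIMP2_IL17, siIMP2, siControl_IL17 and siControl, with 3 libraries each. Titles of replicates 1 and 2 of every group begin with NA and those of replicate 3 with RB160; the labels do not say what these prefixes mean. The labels also do not say whether libraries came from separate embryos or cultures, so each p-value reflects the spread among the sequenced libraries alone, and part of that spread may be technical.

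Adipocytes form from fibroblast-like progenitors in steps. C/EBPβ and C/EBPδ act early and induce Pparg, the nuclear receptor that heterodimerizes with RXR and drives the fat-cell programme, including Fabp4, a fatty acid carrier, and Lpl, the secreted lipase that frees fatty acids from lipoproteins. Zfp423, Ebf1 and Ebf2 are transcription factors of committed progenitors, and Dlk1 (Pref-1), a surface protein of the NOTCH ligand family, marks preadipocytes and restrains their differentiation.

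Libraries held 33841054 to 44433699 counts. The knockdown was visible in all 6 siIMP2 libraries: Igf2bp2 ranged from 18.4 to 28.2 CPM (counts scaled to library size, with TMM factors) there, against 134 to 167 CPM in the 6 siControl libraries, which left 15% of the control level. All 15 fibroblast markers exceeded 1 TPM (abundance scaled to the library and to transcript length) in the mean of the 12 libraries. Not all did so in the libraries of each prefix: Thy1 averaged 0.327 TPM in RB160 and Lum 0.227 TPM in NA libraries. Of 9 markers of mature adipocytes, the defining Adipoq and Lep had no read in any library and only Plin4 and Adrb3 exceeded 1 TPM. The title set moved 69.5% of the 13702 tested genes (9521 genes, RB160 against NA, edgeR quasi-likelihood test, adjusted p under 0.05), so RB160 libraries stand apart and values within each set are given below. In bulk RNA, fewer cells of a type and less RNA per cell cannot be told apart.

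A set of 3 annotated start sites matters for reading Pparg, because the deposited gene count sums over all of them. The gene spans chr6:115360951-115490399 on the plus strand (mm10, ENSMUSG00000000440). RefSeq promoter windows (GRCm38.p6, 250 bases before to 50 after a start) were found for 4 of the 7 genes, namely Pparg, Zfp423, Ebf1 and Dlk1. The most downstream Pparg window, chr6:115421816-115422115, starts the transcript Pparg-201, which encodes the fat-enriched PPARγ2 form. It held 40.3% G and C, against 80.3% and 62.7% in the upstream windows. The pattern TTNNGCAA, a simplified C/EBP motif searched on both strands, occurred at 2 places in this window and in neither of the other Pparg windows. They are shown, in capitals with 11 bases on either side, because C/EBP factors are the known upstream regulators of this start.
Pparg, 215 bases before the start, chr6:115421840-115421869: tgtaccaagtcTTGCCAAAgcagcagacag
Pparg, 16 bases before the start, chr6:115422039-115422068: accaaccaatcTTTTGCAAgacatagacaa
Of all 32851 promoter windows, 10.8% held this pattern. Zfp423 also held it, at 2 places in 1 of its windows, and the windows of Ebf1 and Dlk1 did not. A match is a stretch of letters and not a measured binding site.

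The 7 genes covered a wide range of levels. By the deposited TPM, which correct for transcript length, Dlk1 averaged 22.3 ± 4.63, Ebf1 5.76 ± 2.55, Pparg 4.27 ± 5.84 and Fabp4 2.59 ± 2.15 over the 12 libraries (SD). Lpl (0.149 ± 0.173 TPM), Ebf2 (0.114 ± 0.0727 TPM) and Zfp423 (0.0609 ± 0.0398 TPM) were near 0. Dlk1, with at least 16.2 TPM in every library, did not overlap Ebf1, with at most 11.2 TPM, but its range met that of Pparg, which reached 19 TPM in the RB160 library of siControl cells. Ebf1, Pparg and Fabp4 overlapped each other across libraries, and so did Lpl, Ebf2 and Zfp423. Within every single library, however, Dlk1 lay above Pparg and Ebf1 above Fabp4. The place of Pparg relative to Ebf1 and Fabp4 changed between libraries, as did the order of Lpl, Ebf2 and Zfp423. Zfp423 had 55 counts in all libraries together and did not pass the filter on low counts, which leaves 6 of the 7 genes with a test.

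**Figure D1:**
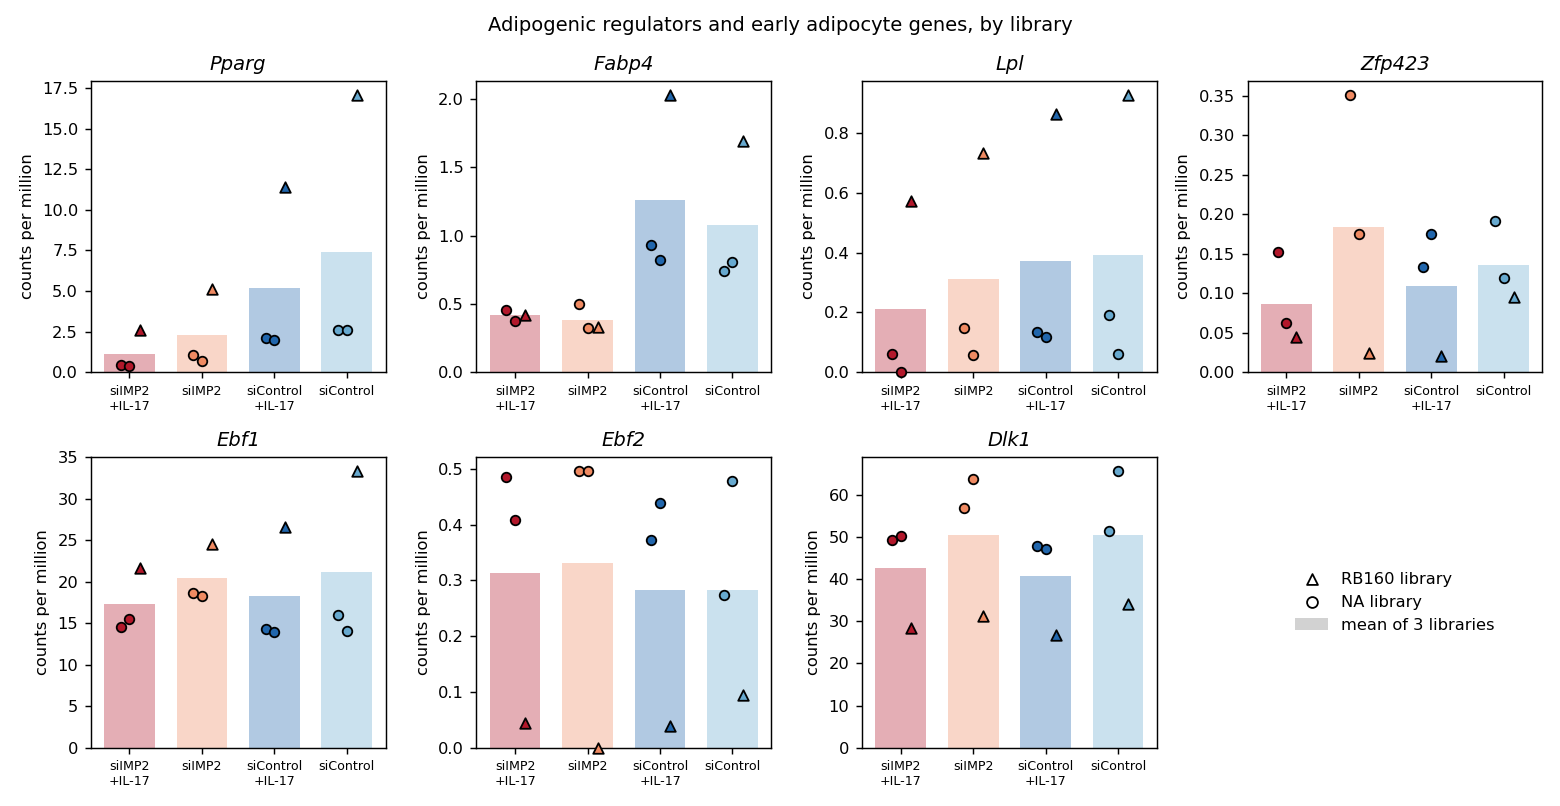
CPM of each gene in each of the 12 libraries; circles are NA libraries, triangles RB160 libraries and bars the mean of 3 libraries, each panel with its own axis from 0. The Fabp4 points of siIMP2 libraries all lie below those of siControl libraries, and the RB160 triangle lies above the circles for Pparg, Lpl and Ebf1 and below them for Ebf2 and Dlk1 in every group.

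Pparg was lower after the IMP2 siRNA with either stimulus state. In siIMP2_IL17 cells it had 15 and 12 counts in the NA libraries and 117 in the RB160 library (0.456, 0.376 and 2.58 CPM), against 79, 68 and 582 counts in siControl_IL17 cells (2.1, 1.99 and 11.4 CPM). In unstimulated siIMP2 cells it had 37, 23 and 218 counts (1.08, 0.671 and 5.15 CPM), against 96, 86 and 718 counts in siControl cells (2.62, 2.57 and 17.1 CPM). Within each title set every siIMP2 library lay below every siControl library of the same stimulus state. Non-overlap within sets was not counted over all genes. Across sets the groups overlap, because RB160 libraries were far higher. The log2 fold change was -2.22 ± 0.16 (SE) with IL-17 (adjusted p = 1.43e-06, edgeR) and -1.64 ± 0.15 without (adjusted p = 5.39e-06, edgeR). Averaged over both states Pparg fell to 26.3% of the siControl level (log2 -1.93 ± 0.11, adjusted p = 4.32e-08, edgeR), and the difference was -1.92 in RB160 and -1.86 in NA libraries. Among all tested genes this was the gene with rank 75 by p-value. The calls needed the title set in the model: without that term the adjusted p (edgeR) was 0.432 with IL-17, 0.55 without and 0.164 for the average, at log2 fold changes of similar size. In the authors' deposited table, the log2 fold change of Pparg was -2.17 with IL-17 (their adjusted p 0.552) and -1.68 without (their adjusted p 1). None of the 7 genes had an adjusted p under 0.05 in any of the authors' comparisons. Fabp4 with IL-17 had a log2 fold change of -1.59 there (their adjusted p 0.757).

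Fabp4 was the other gene of the 7 that fell with the IMP2 siRNA. It had 15, 12 and 19 counts in siIMP2_IL17 cells (the last is RB160), against 35, 28 and 103 counts in siControl_IL17 cells. Unstimulated, it had 17, 11 and 14 counts in siIMP2 cells, against 27, 27 and 71 counts in siControl cells. The 6 siIMP2 libraries, at 0.321 to 0.497 CPM, lay below the 6 siControl libraries, at 0.737 to 2.03 CPM, with no overlap. Groups did not overlap for 8.6% of all tested genes in this comparison of 6 against 6 libraries. Averaged over both states Fabp4 fell to 35.2% of the siControl level (log2 -1.51 ± 0.24, adjusted p = 0.000209, edgeR). It fell with IL-17 (log2 -1.56 ± 0.34, adjusted p = 0.00322, edgeR) and without (log2 -1.45 ± 0.35, adjusted p = 0.00632, edgeR). The unstimulated call was lost in the NA libraries alone (log2 -0.92, adjusted p = 0.0625, edgeR) and without the RB160 siIMP2 library (log2 -0.99, adjusted p = 0.0642, edgeR). Without the title-set term these calls were lost at folds of like size (log2 -1.59 with IL-17, adjusted p = 0.105, and -1.49 unstimulated, adjusted p = 0.125, edgeR), while the average held (log2 -1.54, adjusted p = 0.012, edgeR).

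Fabp4 is also made by macrophages and capillary endothelium. Of 10 macrophage markers only Cd68 exceeded 1 TPM in the mean of the 12 libraries, with Adgre1 and Tyrobp at 0 in all libraries. Csf1r averaged 1.09 TPM in RB160 and 0.644 TPM in NA libraries. Of 10 endothelial markers only Egfl7 exceeded a mean of 1 TPM, with Cldn5 at 0. The macrophage markers summed to 6.53 to 9.93 TPM in siIMP2_IL17 and 9.36 to 10.9 TPM in siControl_IL17 cells, and to 6.42 to 9.19 TPM in siIMP2 and 8.78 to 11.4 TPM in siControl cells. The endothelial markers summed to 3.01 to 4.1 TPM in siIMP2_IL17 and 3.24 to 4.3 TPM in siControl_IL17 cells, and to 2.74 to 3.87 TPM in siIMP2 and 3.8 to 4.18 TPM in siControl cells. The adipocyte markers summed to 2.04 to 4.05 TPM in siIMP2_IL17 and 1.53 to 6.51 TPM in siControl_IL17 cells, and to 2.43 to 6.43 TPM in siIMP2 and 1.43 to 11.3 TPM in siControl cells. The siRNA average called 49.5% of all tested genes. In that average 1 of 4 tested macrophage markers (Mrc1) and 1 of 4 endothelial markers (Cdh5) fell and none rose. Of 2 adipocyte markers 1 (Adrb3) rose. Of markers of other cell types, 1 of 6 for chondrocytes or osteoblasts (Col2a1) and 3 of 5 neural ones (Tubb3, Map2 and Stmn2) fell, Nes and the epithelial Krt19 rose and Cdh1 fell. The part of such cells in the Pparg and Fabp4 differences was not tested.

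The size of the Fabp4 difference was not the same in the 2 title sets. In RB160 libraries the average difference of log2 CPM was -2.16, against -0.92 in NA libraries. Control cells of the RB160 set had 2.03 and 1.69 CPM, above the 0.737 to 0.929 CPM of NA control cells. In siIMP2 cells, by contrast, the RB160 libraries (0.42 and 0.331 CPM) lay within the range of the NA libraries. The difference between the sets was -1.31 ± 0.37 and missed the threshold (adjusted p = 0.0526, edgeR); it passed with no filter on low counts (0.0353) and with uniquely mapped reads (0.038, both edgeR adjusted p).

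Lpl was close to the detection limit in NA libraries. It had 2, 0 and 26 counts in siIMP2_IL17 cells, 5, 2 and 31 in siIMP2 cells, 5, 4 and 44 in siControl_IL17 cells and 7, 2 and 39 in siControl cells, the last of each being RB160. The count of 0 allows up to 3 counts, or 0.0941 CPM, in that library. The RB160 libraries were the high ones in every group, and siIMP2 and siControl groups overlap. The average log2 fold change with the IMP2 siRNA was -0.60 ± 0.32 and did not pass (adjusted p = 0.143, edgeR). Summed over a group, Lpl had 28 counts in siIMP2_IL17 cells (exact 95% Poisson interval 18.6 to 40.5) and 53 in siControl_IL17 cells (39.7 to 69.3). It had 38 counts in siIMP2 cells (26.9 to 52.2) and 48 in siControl cells (35.4 to 63.6). These intervals and floors cover counting error only.

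So the IMP2 siRNA called 2 of the 6 tested genes, both lower, in each stimulus state and in the average. Of all tested genes it called 32.9% in unstimulated cells (4505), 33.4% with IL-17 (4581) and 49.5% in the average (6777), in about equal numbers higher and lower. The share of 2 in 6 is near or below these backgrounds, and the median log2 fold change over all tested genes was 0.00 in the average.

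**Figure D2:**
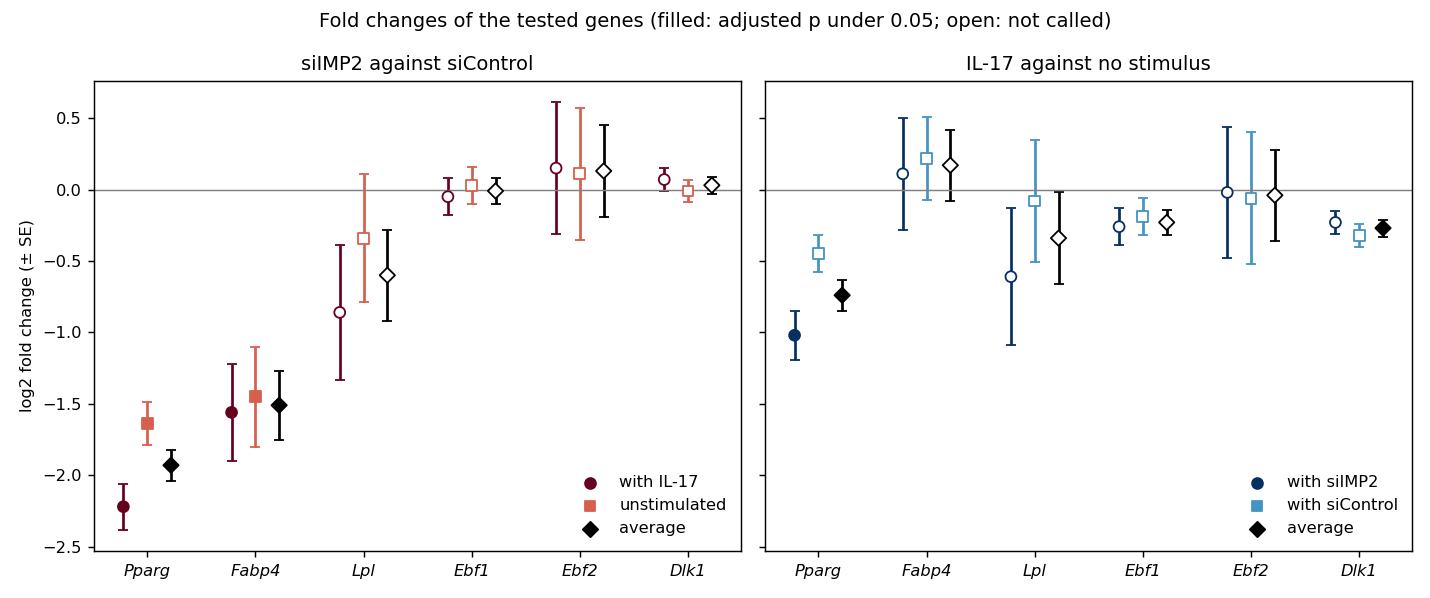
Log2 fold changes (± SE, edgeR) of the 6 tested genes for the IMP2 siRNA (left, with IL-17, unstimulated and average) and for IL-17 (right, with siIMP2, with siControl and average); filled symbols have an adjusted p under 0.05. Pparg and Fabp4 lie well below 0 on the left, Ebf1, Ebf2 and Dlk1 near 0, and on the right the filled symbols are Pparg with siIMP2 and the averages of Pparg (-0.74) and Dlk1 (-0.27).

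Ebf1, which helps specify adipocyte as well as B-cell progenitors, was well measured, and its average difference with the IMP2 siRNA was near 0. Its span is chr11:44617317-45008091 on the plus strand (mm10). It had 480, 493 and 983 counts in siIMP2_IL17 cells, 640, 628 and 1038 in siIMP2 cells, 539, 475 and 1354 in siControl_IL17 cells and 585, 471 and 1403 in siControl cells. The RB160 library was the highest of each group, and all 4 groups overlap. The average log2 fold change with the IMP2 siRNA was -0.01 ± 0.09 (adjusted p = 0.953, edgeR), but it stood for opposite differences in the sets. In RB160 libraries the siIMP2 cells had 21.7 and 24.5 CPM, against 26.6 and 33.4 CPM in siControl cells, a log2 difference of -0.37. In NA libraries they had 14.6 to 18.7 CPM, against 13.9 to 16 CPM in siControl cells, a log2 difference of 0.20. The difference between the sets was -0.57 ± 0.11 and passed the test (adjusted p = 0.00858, edgeR), as it did for 6.58% of all tested genes (902). It was the only one of the 6 tested genes called there, and the call was lost without the RB160 siIMP2 library (log2 -0.40, adjusted p = 0.31, edgeR) or the RB160 siControl library (log2 -0.39, adjusted p = 0.332, edgeR). In the NA libraries alone Ebf1 was higher in siIMP2 cells, by 0.19 on the log2 scale in the average (adjusted p = 0.0311, edgeR) and by 0.29 unstimulated (adjusted p = 0.0298, edgeR).

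Ebf2, a factor of brown and beige fat progenitors, and Zfp423, a zinc finger factor of white fat commitment, were near 0. Ebf2 had 16, 13 and 2 counts in siIMP2_IL17 cells, 17, 17 and 0 in siIMP2 cells, 14, 15 and 2 in siControl_IL17 cells and 10, 16 and 4 in siControl cells. The RB160 library was the lowest of each group, and its count of 0 allows up to 0.0709 CPM. Only 46 of the 133 reads assigned to the whole Ebf2 gene (34.6%) were uniquely mapped, against 96.7% to 100% for the other 6 genes and 87.2% over all genes, so its level is uncertain. With uniquely mapped reads Ebf2 did not pass the filter. Its average log2 fold change with the IMP2 siRNA was 0.13 ± 0.32 (adjusted p = 0.77, edgeR). Zfp423 had 9 counts in siIMP2_IL17 cells (exact 95% Poisson interval 4.12 to 17.1), 19 in siIMP2 cells (11.4 to 29.7), 12 in siControl_IL17 cells (6.2 to 21) and 15 in siControl cells (8.4 to 24.7). The intervals cover counting error only and are no test. With no filter on low counts Zfp423 could be tested among 20274 genes, and its log2 fold change with the IMP2 siRNA was 0.03 ± 0.56 in the average (adjusted p = 1, edgeR). Its highest library, an NA library of siIMP2 cells, held 12 counts.

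Dlk1, at chr12:109452823-109463336 on the plus strand (mm10), was the most abundant of the 7 genes, and it was not called with the IMP2 siRNA. It had 49.2, 50.1 and 28.4 CPM in siIMP2_IL17 cells, against 47.9, 47.1 and 26.8 CPM in siControl_IL17 cells. It had 56.8, 63.6 and 31.2 CPM in siIMP2 cells, against 51.4, 65.7 and 34 CPM in siControl cells. The RB160 library was the lowest of every group, and siIMP2 and siControl libraries of the same set lay close together. The average log2 fold change was 0.03 ± 0.06 (adjusted p = 0.713, edgeR).

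IL-17 lowered Pparg in siIMP2 cells and in the average of both siRNAs. With siIMP2, the values above give a log2 fold change of -1.02 ± 0.17 for IL-17 against no stimulus (49.2% left, adjusted p = 0.0205, edgeR), with -0.98 in RB160 and -0.96 in NA libraries. Within each set every siIMP2_IL17 library lay below every siIMP2 library, and the groups overlap across sets. Every siControl_IL17 library also lay below every siControl library of the same set. How many of all tested genes show such an order within sets was not counted. With siControl the log2 fold change was -0.45 ± 0.13 and did not pass (adjusted p = 0.219, edgeR). The average of both fell by 0.74 ± 0.11 on the log2 scale (adjusted p = 0.00294, edgeR). The call with siIMP2 was lost in 7 of 21 alternative settings. Among them were leaving out any siIMP2_IL17 library, siIMP2 replicate 1 or siIMP2 replicate 3, with edgeR adjusted p values of 0.0606 to 0.253 at log2 fold changes of -1.06 to -0.91. The call of the average was lost in 2 of 20, the NA libraries alone (log2 -0.70, adjusted p = 0.135, edgeR) and the fit without the title-set term (log2 -0.76, adjusted p = 1, edgeR). The difference between the 2 IL-17 responses was -0.57 ± 0.22 (unadjusted p = 0.0216, adjusted p = 1, edgeR), so the responses were not shown to differ. No gene of the 13702 was called in that difference (0%), and 152 had an unadjusted p under 0.05.

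Dlk1 was lower with IL-17 in the average of both siRNAs, by 0.27 ± 0.06 on the log2 scale (82.8% left, adjusted p = 0.0245, edgeR). The difference was -0.24 in RB160 and -0.28 in NA libraries. It did not pass with siIMP2 alone (log2 -0.23 ± 0.08, adjusted p = 0.434, edgeR) or with siControl alone (log2 -0.32 ± 0.08, adjusted p = 0.143, edgeR). The average call was lost in 8 of 20 alternative settings. In 6 of them a single library was left out (siIMP2_IL17 replicate 1, siIMP2 replicate 2, any siControl_IL17 library or siControl replicate 3), with edgeR adjusted p values of 0.0538 to 0.0729. The other genes did not pass: the average log2 fold changes were 0.17 ± 0.25 for Fabp4, -0.34 ± 0.32 for Lpl, -0.23 ± 0.09 for Ebf1 and -0.04 ± 0.32 for Ebf2, with edgeR adjusted p values of 0.803, 0.673, 0.246 and 0.972. IL-17 thus called 2 of 6 in the average, where it called 2.72% of all tested genes (373). It called 1 of 6 with siIMP2, where 0.511% were called (70), and 0 of 6 with siControl, where 0.423% were called (58); there 2 of the 6, Pparg and Dlk1, had an unadjusted p under 0.05 by edgeR, as had 1503 of all 13702 genes, and Dlk1 passed with DESeq2 (adjusted p = 0.0361) and without siControl replicate 1 (log2 -0.41, adjusted p = 0.0241, edgeR).

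All 6 tested genes differed between the title sets, 4 higher and 2 lower in RB160 libraries, in a comparison that called 69.5% of all genes. Pparg was 6.04-fold higher in RB160 libraries (log2 2.60 ± 0.10, adjusted p = 4.09e-10, edgeR), with 117 to 718 counts in RB160 and 12 to 96 counts in NA libraries. Lpl was 7.86-fold higher (log2 2.97 ± 0.32, adjusted p = 2.48e-06, edgeR), with 26 to 44 counts in RB160 and 0 to 7 in NA libraries. Neither gene overlapped between the sets in counts. In CPM Pparg overlapped slightly, at 2.58 in the RB160 library of siIMP2_IL17 and 2.62 in an NA library of siControl. Non-overlap between the sets was not counted over all genes.

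Ebf1 was 1.69-fold higher (log2 0.76 ± 0.09, adjusted p = 1.02e-05, edgeR), again with no overlap, at 983 to 1403 counts in RB160 and 471 to 640 in NA libraries. Fabp4 was 1.64-fold higher (log2 0.71 ± 0.24, adjusted p = 0.0162, edgeR), which rested on the control cells: the call was lost without the RB160 library of siControl_IL17 (log2 0.46, adjusted p = 0.167, edgeR) or of siControl (log2 0.53, adjusted p = 0.109, edgeR). Ebf2 ran the other way, with 0 to 4 counts in RB160 and 10 to 17 in NA libraries (log2 -3.18 ± 0.44, adjusted p = 2.49e-05, edgeR). Most Ebf2 reads were not uniquely mapped, however. Its uniquely mapped reads numbered 0 to 3 in RB160 and 2 to 8 in NA libraries and overlapped. With these reads Ebf2 had no test, so the size of its difference between the sets is uncertain. Dlk1 was at 55.8% of the NA level (log2 -0.84 ± 0.06, adjusted p = 1e-07, edgeR), with 16.2 to 19.7 TPM in RB160 and 21.6 to 31.1 TPM in NA libraries. Zfp423 had 8 counts in the 4 RB160 libraries and 47 in the 8 NA libraries, and with no filter on low counts it was called lower in RB160 (log2 -1.82 ± 0.60, adjusted p = 0.0117, edgeR), as 48.4% of the 20274 genes were called either way.

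Marker levels moved with the title set as well. Of the 15 fibroblast markers 9 were called higher and 4 lower in RB160 libraries. Their sums overlapped, at 16260 to 19593 TPM in RB160 and 13713 to 16536 TPM in NA libraries. The summed TPM of the 9 adipocyte markers was 4.05 to 11.3 in RB160 and 1.43 to 2.66 in NA libraries, led by Plin4 (a mean of 6.17 TPM in RB160 and 0.494 TPM in NA libraries). Adrb3 ran the other way, with a mean of 0.695 TPM in RB160 and 1.33 TPM in NA libraries, and both were called. The 10 chondrocyte or osteoblast markers, led by Col2a1, summed to 201 to 404 TPM in RB160 and 73.3 to 105 TPM in NA libraries. The 8 neural markers summed to 209 to 259 TPM in RB160 and 402 to 473 TPM in NA libraries. The 8 epithelial markers summed to 66.9 to 114 TPM in RB160 and 120 to 286 TPM in NA libraries, and the 9 skeletal muscle markers to 0.485 to 0.637 TPM in RB160 and 0.848 to 1.51 TPM in NA libraries. All 4 tested endothelial markers were called lower in RB160, with overlapping sums of 2.74 to 3.8 TPM in RB160 and 3.2 to 4.3 TPM in NA libraries; macrophage sums overlapped as well. The part of cell composition in the differences between sets was not tested. None of the 6 tested genes was called for a difference between the sets in the response to IL-17, a test that called 0.307% of all genes (42); the smallest adjusted p (edgeR) among the 6 was 0.904, none had an unadjusted p under 0.05, and DESeq2 and limma-voom called none.

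**Figure D3:**
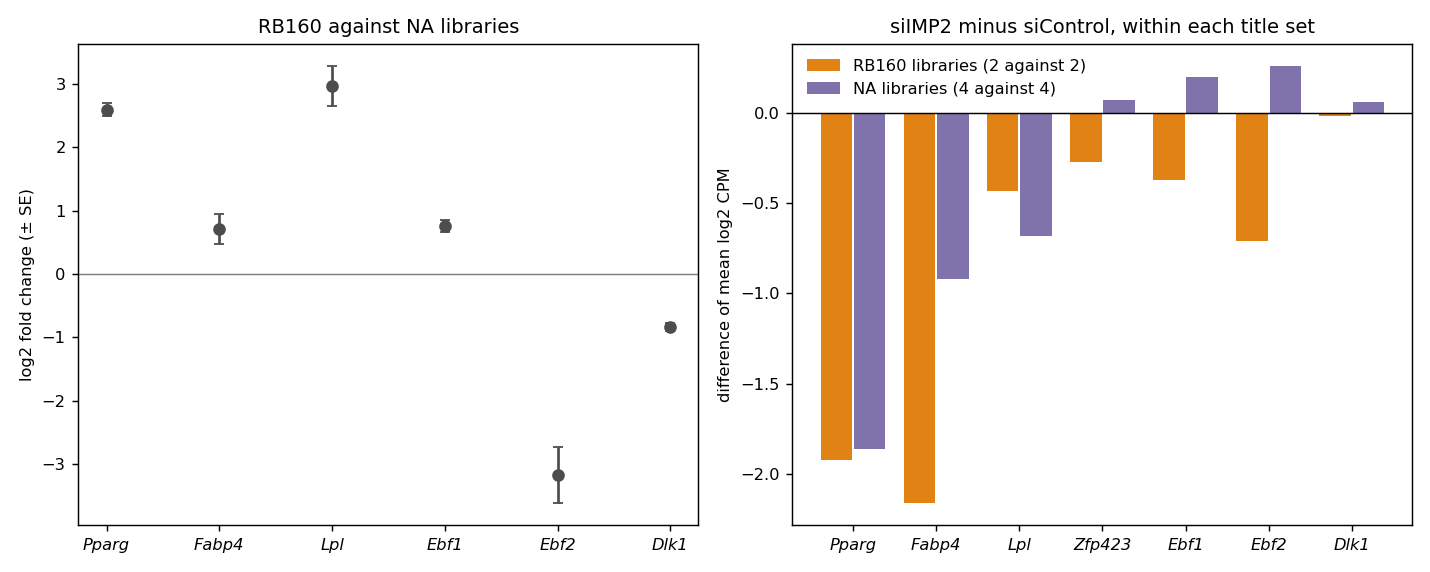
Left, log2 fold changes (± SE, edgeR) of RB160 against NA libraries for the 6 tested genes, above 0 for Pparg, Fabp4, Lpl and Ebf1 and below 0 for Ebf2 and Dlk1. Right, the siIMP2 minus siControl difference of mean log2 CPM within RB160 and within NA libraries for all 7 genes; Pparg has bars of like length (-1.92 and -1.86), Fabp4 a longer RB160 bar (-2.16 against -0.92), and Ebf1 bars of opposite direction (-0.37 and 0.20).

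Reads of a gene outside its exons, mostly from introns, give a second readout of the same genes. Such reads were few: Pparg had 110 over all libraries, Ebf1 420 and Dlk1 187, and these 3 could be tested. The average log2 fold changes with the IMP2 siRNA were -0.76 ± 0.37 for Pparg (adjusted p = 0.149, edgeR), -0.52 ± 0.20 for Ebf1 (adjusted p = 0.0721, edgeR) and -0.35 ± 0.28 for Dlk1 (adjusted p = 0.407, edgeR). None of the 3 was called, against 22.2% of the 12463 genes tested there (2768). Pparg and Ebf1 had unadjusted p values of 0.0496 and 0.0182 (edgeR quasi-likelihood test over all genes), and 4140 of the 12463 genes were under 0.05. When 1 library was left out the Pparg value ran from -1.58 (without siIMP2_IL17 replicate 3) to -0.66 and was not called. Ebf1 passed without siIMP2_IL17 replicate 1 (log2 -0.67, adjusted p = 0.0251, edgeR) or siControl replicate 1 (log2 -0.63, adjusted p = 0.0292, edgeR). Fabp4, Lpl, Zfp423 and Ebf2 had 17, 5, 22 and 7 such reads and no test.

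The genes whose levels followed each member most closely were found by Pearson correlation of log2 CPM over the 12 libraries, after the mean of each title set was taken off, among 11081 genes. These correlations share libraries and the large siRNA difference and are a description only. For Pparg they were C1qtnf1 (0.99), Zfp395 (0.99) and Epha7 (0.98), and for Fabp4 Auts2 (0.99), Tnfrsf1a (0.98) and Cyb5a (0.97). For Ebf1 they were Trabd2b (0.95), Wnt5a (0.93) and Aldh1a7 (0.93). Likeness was lower for Lpl (Clock, 0.93), Dlk1 (Slc25a12, 0.89) and Ebf2 (Rpain, 0.86).

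Other genes of the pathway moved in both directions with the IMP2 siRNA. The counts for each list below stand beside 49.5% of all tested genes called in the siRNA average. Of 15 tested adipogenic transcription factors, 4 rose and 5 fell in the average (median log2 fold change -0.10). Cebpd, the early inducer of Pparg, averaged 27.9 ± 14 CPM in siIMP2 and 77.3 ± 42.9 CPM in siControl libraries (SD, n = 6 each; log2 -1.41 ± 0.18, adjusted p = 3.48e-05, edgeR). Stat5a, a hormone-responsive factor, averaged 11.8 ± 2.06 CPM in siIMP2 and 26.1 ± 7.67 CPM in siControl libraries (SD, n = 6 each; log2 -1.13 ± 0.08, adjusted p = 1.99e-07, edgeR). Klf9 and Klf5, zinc finger factors that favour adipogenesis, rose by 0.62 and 0.55 on the log2 scale. Cebpd was also the one factor of this list that IL-17 raised in the average, to 73.1 ± 43.3 CPM against 32.2 ± 24.8 CPM without stimulus (SD, n = 6 each; log2 1.28 ± 0.18, adjusted p = 0.00212, edgeR).

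Inhibitors of adipogenesis were mixed too, with 6 of 23 higher and 8 lower (median 0.05). Yap1, a Hippo pathway effector, rose by 0.44 and Ddit3, the dominant-negative C/EBP partner CHOP, by 0.62 on the log2 scale. Twist2 fell by 0.58 and Wnt10a by 1.08. IL-17, which called 2.72% of all tested genes in the average, lowered 3 of the 23, among them Nr2f2 (log2 -0.33) and Zfp521 (log2 -0.45). Zfp521 is the paralog of Zfp423 that opposes it.

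Of 15 tested PPAR and RXR receptors and their cofactors, 4 rose and 3 fell with the IMP2 siRNA (median 0.05). Rxra, the partner of PPARγ, had 55.5 ± 3.6 CPM in siIMP2 and 67.1 ± 7.94 CPM in siControl libraries (SD, n = 6 each; log2 -0.27 ± 0.04, adjusted p = 0.000197, edgeR). The corepressor Nrip1 fell by 0.58 and Tbl1xr1, a corepressor exchange factor, by 0.66, while the related receptor Ppard rose by 0.16. None of these 15 was called with IL-17 in the average; 2.72% of all genes were.

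PPAR target genes moved both ways. Of 26 listed, 17 were tested; 4 rose, 3 fell and 10 did not pass in the siRNA average (median -0.01, against 0.00 over all genes). Plin2, a lipid droplet coat protein, rose by 0.47 on the log2 scale. Pdk4, a brake on glucose oxidation, fell by 0.79 and Cpt1a, which admits fatty acids to mitochondria, by 0.35. Of 12 tested mature adipocyte genes, 4 rose and 2 fell (median -0.01); Acaca and Scd1, enzymes of fatty acid synthesis and desaturation, fell by 0.37 and 0.29, and the lipase Pnpla2 and the acyltransferase Dgat1 rose by 0.35 and 0.28.

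Of 17 tested preadipocyte and progenitor surface genes, 5 rose and 9 fell (median -0.19). Pdgfra, the receptor that marks adipocyte progenitors, had 11.9 ± 12.6 CPM in siIMP2 and 55.7 ± 56.8 CPM in siControl libraries (SD, n = 6 each; log2 -2.27 ± 0.08, adjusted p = 1.77e-09, edgeR), and it is also one of the fibroblast markers. Of the 15 fibroblast markers 3 rose and 8 fell, and their summed level was 14589 to 19593 TPM in siIMP2 and 13713 to 18314 TPM in siControl libraries. Pdgfrb fell by 0.50, while the clotting initiator F3 and Anxa3 rose by 1.22 and 0.63. In the IL-17 average, which called 2.72% of all tested genes, 3 of the 17 fell, among them Pdgfrb (log2 -0.24) and Bmp4 (log2 -0.48).

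Of 13 tested partners of lipoprotein lipase, 5 rose and 1 fell (median 0.16). Vldlr, a receptor for triglyceride-rich particles, rose by 0.69, the proprotein convertase Pcsk6 by 0.68 and the basement membrane proteoglycan Hspg2 by 0.34; the proteoglycan Sdc1 fell by 0.55. Among 7 tested paralogs of the 7 genes, Ppard and Ebf4 (log2 0.57) rose and none fell. At the imprinted locus around Dlk1, 1 of 6 tested genes rose and 2 fell: the noncoding Meg3 rose by 0.30, and Begain and Dio3 fell by 0.49 and 0.87. Of 11 NOTCH genes 3 rose and 3 fell; Jag1 rose by 0.75 and Hey2 by 0.95, and Notch1 and Adam17 fell by 0.67 and 0.59. IL-17 raised the NOTCH effector Rbpj (log2 0.26) and lowered Hey2 (log2 -0.69) in the average. The genes said here to rise or fall had an edgeR adjusted p under 0.05, the threshold used throughout.

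**Figure D4:**
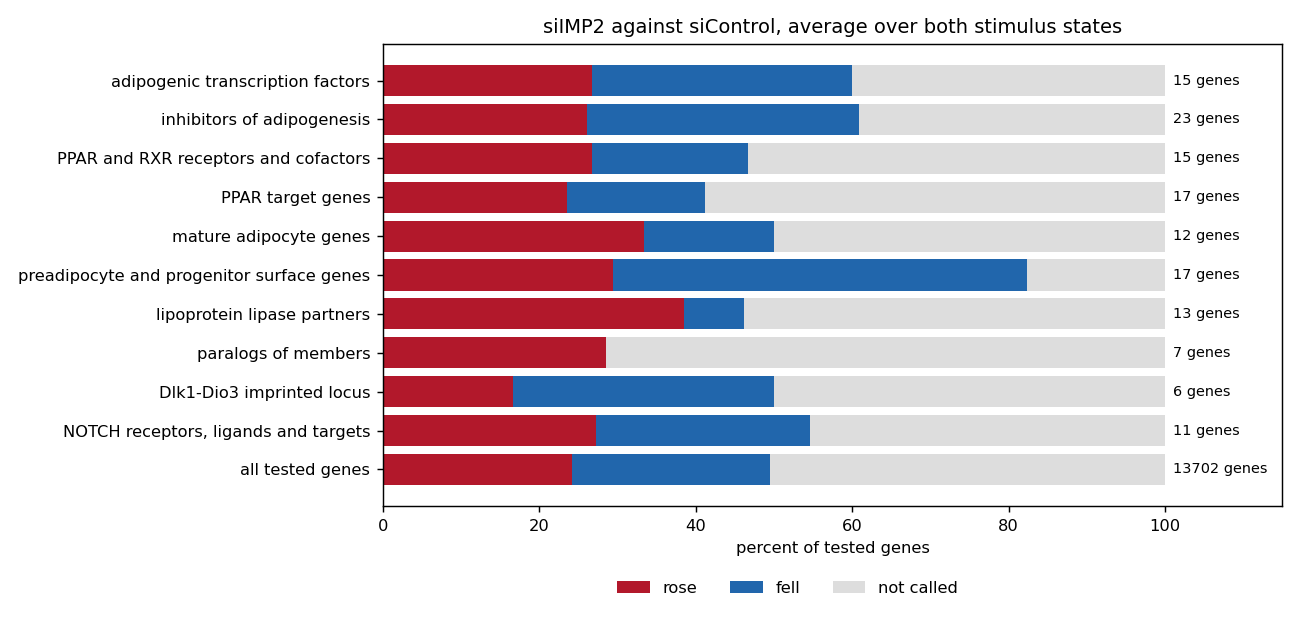
Percent of tested genes that rose, fell or were not called with the IMP2 siRNA in the average over both stimulus states (edgeR, adjusted p under 0.05), for the 10 pathway lists and for all 13702 tested genes. Among all tested genes, the bottom bar, 49.5% were called; among the 17 preadipocyte and progenitor surface genes 5 rose and 9 fell.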

How the data were processed

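Total RNA of 12 libraries was profiled by RNA-seq. The deposited counts are raw whole numbers of reads in the exons of each gene. Paired reads had been trimmed, per the file headers. According to the submitters' processing notes the genome build was mm10. Which aligner and counter were used, and whether strand was, is not given in the sources used here, so reads shared with overlapping, antisense or paralogous genes are uncertain. TPM were deposited per library, and reads outside exons are total gene reads minus exon reads. The authors deposited log2 fold changes and adjusted p-values for 4 comparisons, with no test named. The 12 series columns equalled the per-library counts.

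The main model used edgeR 4.0.16 under R 4.3.3 (filterByExpr by group with a minimum count of 10 and total of 15, TMM factors, quasi-likelihood fit of the 4 groups and the title set over 12 libraries), with Benjamini-Hochberg adjustment over all 13702 genes. A second fit let the siRNA and IL-17 effects differ between title sets. Each SE of an edgeR fold change is the absolute log2 fold change divided by the square root of the F statistic, an approximation. Log2 CPM used a prior count of 2. A count of 0 allows up to 3 counts. Replicate numbers follow accession order and pair nothing. The method was tested on simulated data in which few genes changed, unlike these data. That test is not used as support for any result here. Pathway genes named are, per list, up to 4 of smallest p in the siRNA average and up to 2 called in the IL-17 average, less 1 gene that is not reported here; other genes named by their likeness or as markers follow the same written rule. The genes and lists were chosen with earlier results of these data known. Alternatives were RLE factors, DESeq2 1.42.0, limma-voom (limma 3.58.1), other filters, no title-set term, NA libraries alone, only the groups compared, uniquely mapped reads and each library left out. Figures used matplotlib 3.10.9 in Python 3.11.15.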

Additional observations from a re-analysis of the deposited data

Results flagged for a closer look

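The effect of the IMP2 siRNA on Ebf1 differed between the title sets. The RB160 minus NA difference of the log2 fold changes was -0.57 (adjusted p = 0.00858, edgeR), with siIMP2 libraries lower than siControl libraries in the RB160 set (2 of 2 pairs of the same stimulus state) and higher on average in the NA set. The call was lost without the RB160 library of siIMP2 (log2 -0.40) or of siControl (log2 -0.39). The same test called 6.58% of all tested genes. What the prefixes stand for is not given in the labels, and the cause was not tested.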

How the results depend on the processing

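Of 1179 values of single genes under alternative settings, 1053 kept their direction and their side of the threshold, 28 lost a call, 8 gained one and 90 changed sign. In 1 of these 90 a value was called, namely Ebf1 for the IMP2 siRNA in the average (0.19 in NA libraries alone, against -0.01). All other changes of sign were in values that passed no test on either side.

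Without the title-set term, the number of the 7 genes called was 0 for the IMP2 siRNA in each stimulus state, 1 in the average (Fabp4), 0 for IL-17 with siIMP2 and 0 for its average. In NA libraries alone, where Lpl and Zfp423 were not tested, it was 0 for IL-17 with siIMP2 and 0 for its average. For the siRNA unstimulated it stayed at 2 there, with Ebf1 (0.29) called in place of Fabp4, and 30.4% of 13476 genes were called. For the siRNA average it was 3, and 47.2% of all genes were called. At a filter of 1 CPM in 3 libraries, which removes Fabp4, Lpl and Ebf2 from the test, it was 1 in each siRNA comparison and 3 between title sets. With that filter 36.1% of 12205 genes were called for the siRNA unstimulated, 36.6% with IL-17, 52.9% in the average and 72.3% between title sets. The number of the 7 genes called was 1 for IL-17 with siControl under DESeq2 and with no filter. It was 2 for the siRNA effect between sets with no filter and with uniquely mapped reads. Leaving out 1 library gave 1 to 2 for the siRNA in unstimulated cells, 0 to 1 for IL-17 with siControl, 0 to 1 with siIMP2, 1 to 2 for its average, 0 to 1 for the siRNA effect between sets and 0 to 1 for reads outside exons.

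The other changes of sign are given as log2 fold changes. With DESeq2, Ebf2 was -0.08 for the siRNA unstimulated, 0.06 for IL-17 with siIMP2 and 0.13 for IL-17 between sets. With limma-voom, Ebf1 was -0.02 and Ebf2 -0.01 for the siRNA unstimulated, and Ebf2 was 0.01, 0.17 and 0.09 for IL-17 with siControl, with siIMP2 and in the average, and 0.21 between sets. Without the title-set term, Ebf1 was -0.04 and Dlk1 0.00 for the siRNA unstimulated, and Ebf2 -0.08 for the difference of the IL-17 responses. In NA libraries alone, Dlk1 was 0.03 for the siRNA unstimulated, Ebf1 0.09 with IL-17, and Ebf2 0.12 for IL-17 with siControl and -0.26 for the difference of the responses. With uniquely mapped reads, Fabp4 was 0.02 for that difference and Pparg 0.01 for the siRNA between sets.

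Ranges over the fits that each leave out 1 library, where the sign changed, were as follows. For the siRNA unstimulated they were -0.08 to 0.23 for Ebf1, -0.30 to 0.32 for Ebf2 and -0.11 to 0.08 for Dlk1. With IL-17 Ebf1 ranged from -0.11 to 0.06. In the average they were -0.06 to 0.09 for Ebf1, -0.07 to 0.24 for Ebf2 and -0.02 to 0.08 for Dlk1. For IL-17 with siControl they were -0.11 to 0.48 for Fabp4, -0.22 to 0.13 for Lpl, -0.30 to 0.02 for Ebf1 and -0.47 to 0.16 for Ebf2. With siIMP2 they were -0.34 to 0.49 for Fabp4 and -0.20 to 0.11 for Ebf2, and in the IL-17 average -0.06 to 0.36 for Fabp4 and -0.24 to 0.07 for Ebf2. For the difference of the responses they were -0.56 to 0.27 for Fabp4, -0.28 to 0.04 for Ebf1, -0.18 to 0.46 for Ebf2 and 0.00 to 0.19 for Dlk1. For the siRNA between sets they were -0.19 to 0.17 for Pparg, -0.02 to 1.32 for Lpl, -5.29 to 0.01 for Ebf2 and -0.17 to 0.02 for Dlk1. For IL-17 between sets they were -0.25 to 0.07 for Pparg, -0.07 to 1.28 for Lpl, -0.23 to 0.13 for Ebf1, -1.32 to 3.99 for Ebf2 and -0.04 to 0.14 for Dlk1.

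The background counts also depended on the setting. Without the title-set term, called genes numbered 321 for the siRNA unstimulated (against 4505), 327 with IL-17 (4581), 1666 in the average (6777), 1 for IL-17 with siControl (58), 2 with siIMP2 (70), 4 in its average (373) and 427 for reads outside exons (2768). With no filter they were 221, 179 and 674 for the same 3 IL-17 comparisons, 1522 for the siRNA between sets (902) and 322 for IL-17 between sets (42), and with DESeq2 193, 171 and 654 for IL-17 and 97 for IL-17 between sets. With only the groups compared they were 100 and 349 for IL-17 with siControl and with siIMP2. NA libraries alone gave 46 for IL-17 with siIMP2 and 199 in its average, and uniquely mapped reads 68 for IL-17 between sets. Leaving out 1 library gave 9 to 98, 13 to 117 and 198 to 490 for the 3 IL-17 comparisons, 112 to 1110 for the siRNA between sets and 2 to 64 for IL-17 between sets. No paired analysis was possible because the labels give the groups no shared replicate numbers; the title set, the one block in the labels, is in the model.

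Depth limits Lpl, Ebf2 and Zfp423, which had 167, 126 and 55 counts in all. Each group holds 1 RB160 library, so values within that set have no replicate. The causes of these changes were not tested.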
